A study of Mus musculus with 16 samples.

Results

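The genes described here are 10 genes of mechanical sensing and of the YAP-TAZ pathway, taken by symbol from the 36829 features listed for each mouse. They are the channels Piezo1, Piezo2 and Trpv4, the transcriptional coactivators Yap1 and Wwtr1 (which encodes TAZ), the target genes Ctgf, Cyr61 and Ankrd1, the gap junction gene Gja1 (connexin 43) and Ptk2 (focal adhesion kinase). All 10 were listed, and 8 of them were among the 16973 features whose mean over all mice reached 0.5 RPKM and which were therefore tested together. Piezo2 and Trpv4 fell below that minimum and were tested singly.

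The study asked how the transcripts of cortical bone change when the hindlimbs stop bearing load. Female C57Bl/6 mice of 11 weeks either had their hindlimbs lifted off the floor by a tail harness for 7 days (hindlimb unloading, HLU, n = 8) or walked normally (control, n = 8). The labels name no allele or treatment beside unloading. The harness was fitted under isoflurane, and whether control mice were also anaesthetized is not given in the sources used here. The femur was cut at both ends and its marrow was rinsed out, and total RNA of the remaining shaft was sequenced as 1 library per mouse. Levels are RPKM, read counts scaled by gene length and library depth.

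Piezo1, Piezo2 and Trpv4 are cation channels of the cell membrane. Piezo channels open when the membrane is stretched, and Piezo1 is known as a load sensor of osteoblasts and osteocytes. YAP and TAZ move into the nucleus when cells spread or are pulled, where they bind TEAD factors and switch on genes such as Ctgf, Cyr61 and Ankrd1. Their activity is set largely by phosphorylation and location in the cell, which RNA levels do not measure. Connexin 43 joins osteocytes into a network through their processes, and focal adhesion kinase signals from integrins at the sites where cells hold the matrix.

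The relative RPKM divisors of the libraries were recovered from the values. Their absolute scale was set by exon lengths of the GENCODE M21 annotation, which matched for 3009 of 14754 features. On that scale the divisor ranged from 7067512 reads in Control 2 to 21363584 reads in HLU 6. Accordingly 3 reads on a gene of 1 kb correspond to 0.14 to 0.424 RPKM. All 8 osteocyte markers and all 8 osteoblast markers passed the minimum, with summed levels of 185 to 621 RPKM and of 819 to 2411 RPKM over the mice, as the tissue label implies. Markers of other cells were present, as 7 granulocyte markers summed to 12657 to 44958 RPKM, 10 erythroid markers to 1658 to 8643 RPKM and 7 endothelial markers to 63.3 to 100.2 RPKM. A change in the level of a gene in such a mixture can come from fewer cells of a type or from less RNA per cell, and these cannot be told apart here. Sequencing lanes were not labelled, so no value within a lane can be given.

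The level of the 10 genes covered a wide range. Gja1 was highest, with a mean of 87.4 RPKM over all 16 mice, and exceeded 97.5% of the features tested. Ctgf followed at 44.0 RPKM, Ankrd1 at 24.9 and Cyr61 at 21.9 RPKM. The kinase and coactivator genes lay lower, with Ptk2 at 7.03, Wwtr1 at 6.48 and Yap1 at 4.71 RPKM. The channel genes were lowest, with Piezo1 at 2.59, Piezo2 at 0.432 and Trpv4 at 0.417 RPKM. Most steps of this order held within nearly every mouse: Gja1 exceeded Ctgf in 15 of 16 mice, Cyr61 exceeded Ptk2 in 16, Wwtr1 exceeded Yap1 in 15 and Piezo1 exceeded Piezo2 in 16. Ankrd1 exceeded Cyr61 in 9 of 16 mice and Piezo2 exceeded Trpv4 in 6 of 16, so the order within these neighbouring pairs was not stable between mice.

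**Figure D1:**
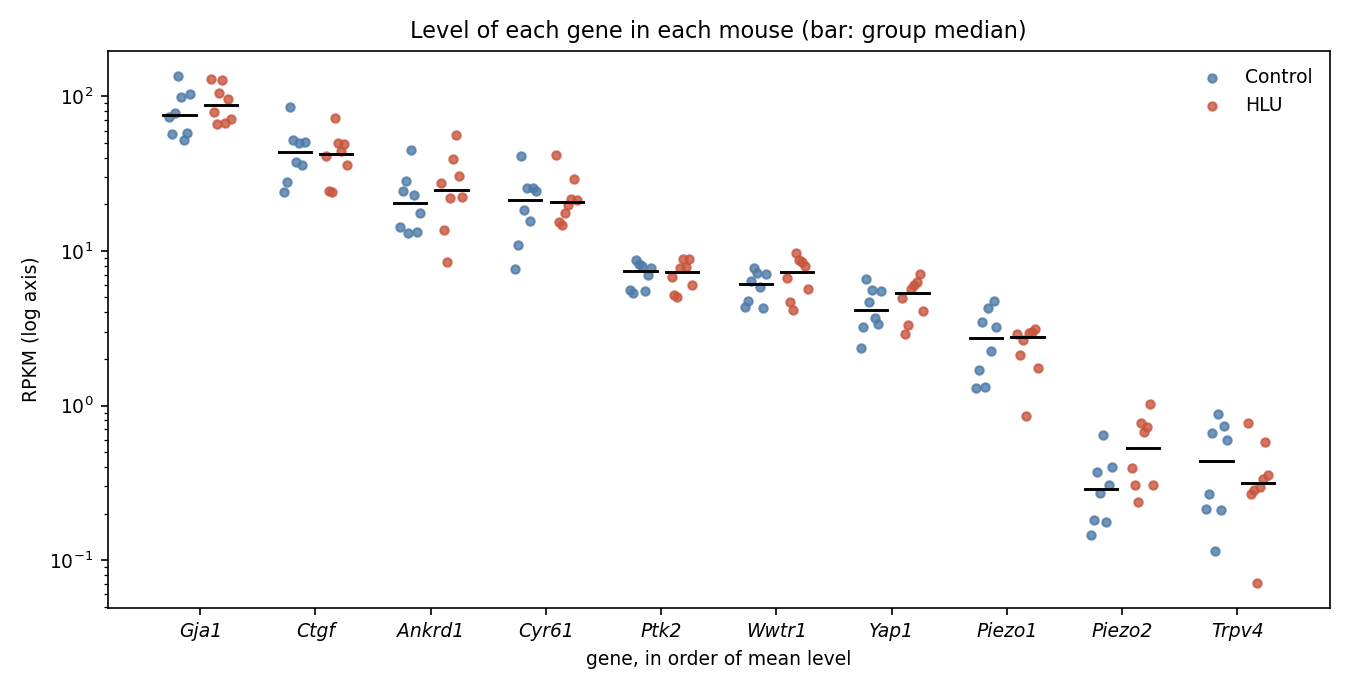
RPKM of each gene in each of the 16 mice on a log axis, with genes in order of mean level, control mice in blue, HLU mice in red, and a black bar at each group median. For every gene the range of the HLU mice overlapped that of the control mice, and the largest separation of medians was that of Piezo2, at 0.287 RPKM in control and 0.531 RPKM in HLU.

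In every gene the values of the groups overlapped. At an unadjusted limma p under 0.05 with at least 1.2-fold change, 0 of the 8 genes tested together were called, against 5.87% of all features (996 of 16973), and the lowest unadjusted limma p among the 8 was 0.289. At a Benjamini-Hochberg adjusted limma p under 0.1 no feature at all was called, with 1049 features at an unadjusted p under 0.05 at any fold and a lowest adjusted p of 0.256. Groups without any overlap were found for 0 of the 10 genes and for 0.0295% of all features. Of the 996, 188 were higher in HLU and 808 lower (18.9% higher), a split that depended on scaling, with 376 higher and 401 lower under median-of-ratios (48.4% higher) and 460 and 364 under quantile normalization (55.8% higher), which shifted the median of all features by 0.10.

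The median log2 fold change of the 8 genes, HLU minus control, was 0.20 and 5 of the 8 lay above 0, beside a median of -0.10 and 32.1% above 0 over all features tested. Relative to the median of all features 7 of the 8 were higher, all but Piezo1, under the deposited scaling, median-of-ratios and quantile normalization alike. The 8 passed a minimum on level, and this count describes them without a test.

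**Figure D2:**
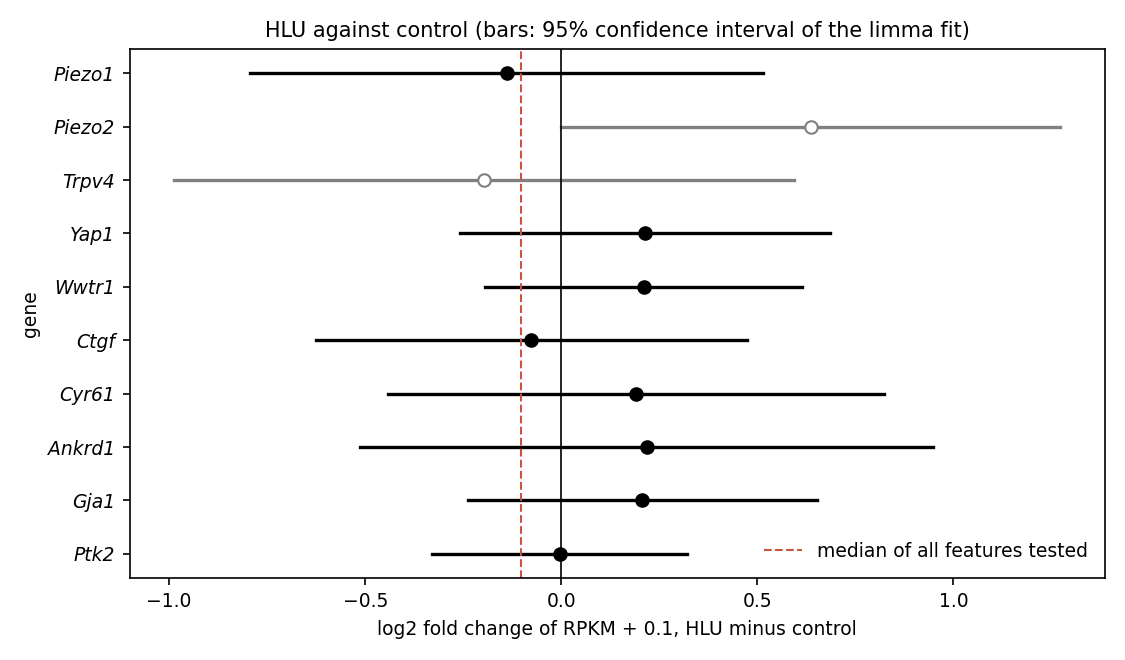
Log2 fold change of RPKM + 0.1 (HLU minus control) on the horizontal axis for each gene on the vertical axis, with the 95% confidence interval from limma as a bar. Open grey circles mark Piezo2 and Trpv4, fitted without the minimum on level, and the dashed line marks the median of all features tested, -0.10; every interval includes 0, and that of Piezo2 begins at -0.0018.

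Among the channels, Piezo1 spanned 1.31 to 4.71 RPKM (median 2.72) in the controls and 0.850 to 3.11 RPKM (median 2.77) after unloading. The medians were nearly equal, while 4 control mice stood above every HLU mouse and 1 HLU mouse, HLU 4, stood below every control. The mean level was 2.78 ± 1.34 RPKM in control and 2.41 ± 0.788 RPKM in HLU (SD, n = 8 each). The log2 fold change was -0.14, with a 95% confidence interval from -0.79 to 0.51 (exact permutation test over the 12870 splits of the mice, two-sided, p = 0.679). Without HLU 4 it was 0.05. Piezo1 shares exon bases with Ctu2 on the opposite strand, and the library kit does not mark strand, so reads in the shared stretch cannot be assigned. Ctu2 was listed at a median of 1.76 RPKM.

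Piezo2, best known from touch and position sense in sensory neurons, had the largest log2 difference between groups of the 10 genes. It spanned 0.144 to 0.643 RPKM (median 0.287) in the controls and 0.239 to 1.02 RPKM (median 0.531) after unloading. Of the 8 HLU mice, 7 stood above the control median and 4 (the 4 highest of all mice) above every control mouse. The mean was 0.312 ± 0.163 RPKM in control and 0.553 ± 0.280 RPKM in HLU (SD, n = 8 each). On the scale of RPKM + 0.1 this gave a log2 fold change of 0.64 (exact permutation test, two-sided, p = 0.0490). These levels rest on 23 to 319 reads per library. Fitted with all features above 0, the 95% confidence interval ran from -0.0018 to 1.27 (limma, unadjusted p = 0.0506, adjusted p = 0.820). The exact p rose above 0.05 when any of 11 of the 16 mice was left out (each mouse but Control 5, Control 8, HLU 2, HLU 3 and HLU 8), up to 0.0971 without HLU 7, where the log2 fold change was 0.51. It was 0.136 without both Control 2 and HLU 5, the libraries of lowest depth.

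Markers of sensory neurons, the cells in which Piezo2 is best known, were uneven in this bone. Scn9a did not exceed 0.0104 RPKM and Nefl did not exceed 0.0277 RPKM. Prph, which encodes the neuronal filament peripherin, reached 0.751 RPKM in control and 0.709 RPKM in HLU mice, with a mean of 0.340 RPKM over all mice, and Calca reached 0.219 and 0.178 RPKM. Of the 9 genes of the sensory neuron and Schwann cell list, 3 passed the minimum, all of them myelin genes. The summed level of the list was 4.11 to 7.56 RPKM in control mice and 6.10 to 7.73 RPKM in HLU mice, and the part of these cells in the Piezo2 difference was not tested.

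Trpv4, a channel opened by osmotic swelling, warmth and lipid mediators that cartilage and bone cells use, spanned 0.114 to 0.879 RPKM (median 0.435) in the controls and 0.0717 to 0.775 RPKM (median 0.318) after unloading. Only 2 HLU mice stood above the control median, yet the ranges overlapped over most of their length. The means were 0.462 ± 0.292 RPKM and 0.371 ± 0.214 RPKM (SD, n = 8 each), and the log2 fold change was -0.20 (exact permutation test, two-sided, p = 0.615). It was -0.0082 without HLU 4 and -0.37 without Control 4. With 8 to 111 reads per library, counting alone gives a coefficient of variation of 17.1% at the median of 34.0 reads, beside 63.1% observed in control and 57.6% in HLU mice.

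The coactivator genes Yap1 and Wwtr1 had nearly the same difference between groups under the deposited scaling. Yap1 spanned 2.37 to 6.55 RPKM (median 4.17) in the controls and 2.92 to 7.11 RPKM (median 5.33) after unloading. From means of 4.37 ± 1.43 RPKM and 5.05 ± 1.49 RPKM (SD, n = 8 each) the log2 fold change was 0.21, with a 95% confidence interval from -0.26 to 0.69 (exact permutation test, two-sided, p = 0.370). Wwtr1 spanned 4.28 to 7.71 RPKM (median 6.12) in the controls and 4.14 to 9.64 RPKM (median 7.35) after unloading. For Wwtr1, 4 HLU mice stood above every control and 1 below every control, so unloaded mice lay on both sides of the control range. The means were 5.95 ± 1.36 RPKM and 7.01 ± 2.03 RPKM, and the log2 fold change was 0.21, with an interval from -0.19 to 0.61 (exact permutation test, two-sided, p = 0.301). Without single mice Yap1 was 0.10 (without Control 1) to 0.32 (without HLU 2) and Wwtr1 0.14 (without HLU 4) to 0.31 (without HLU 3), and with the erythroid and granulocyte marker scores as covariates they were 0.28 and 0.086. Yap1 overlaps Gm20416 on the opposite strand, listed at a median of 0.59 RPKM.

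The target genes Ctgf and Cyr61 encode secreted matrix proteins of the CCN family, and Ankrd1 encodes an ankyrin repeat protein best known from stretched heart and skeletal muscle. Ctgf spanned 24.1 to 84.9 RPKM (median 43.7) in the controls and 23.9 to 72.1 RPKM (median 42.5) after unloading. These ranges nearly coincided. From means of 45.4 ± 19.1 RPKM and 42.5 ± 15.6 RPKM the log2 fold change was -0.08, with an interval from -0.63 to 0.47 (exact permutation test, two-sided, p = 0.774), and it was 0.07 without Control 3, the highest mouse, and 0.06 under quantile normalization. Ctgf overlaps Gm15270 on the opposite strand, listed at a median of 1.91 RPKM.

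Cyr61 spanned 7.66 to 41.1 RPKM (median 21.3) in the controls and 14.8 to 41.6 RPKM (median 20.7) after unloading. The medians were alike, and the 2 lowest mice, Control 1 and Control 2, were both controls. The means were 21.1 ± 10.5 RPKM and 22.7 ± 8.87 RPKM, and the log2 fold change was 0.19, with an interval from -0.44 to 0.82 (exact permutation test, two-sided, p = 0.573). It was 0.0067 without Control 1, 0.054 without HLU 1 and 0.35 without Control 3. With the erythroid and granulocyte marker scores as covariates Cyr61 was the 1 gene of the 8 to be called, at 0.59 with an interval from 0.10 to 1.09 (limma, unadjusted p = 0.0225, adjusted p = 0.134), in a fit that called 23.5% of all features. The same fit moved Piezo1 to 0.51 (limma, unadjusted p = 0.0574).

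Ankrd1 had the widest range of the 8 genes tested together, with a highest value 6.68 times the lowest. It spanned 13.1 to 45.1 RPKM (median 20.3) in the controls and 8.43 to 56.3 RPKM (median 24.8) after unloading. The lowest and the highest of all mice, HLU 3 and HLU 6, were both unloaded. From means of 22.4 ± 10.8 RPKM and 27.5 ± 15.1 RPKM the log2 fold change was 0.22, with an interval from -0.51 to 0.95 (exact permutation test, two-sided, p = 0.568). It was 0.041 without HLU 6 and 0.43 without HLU 3.

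Gja1 spanned 52.3 to 135 RPKM (median 75.7) in the controls and 66.3 to 129 RPKM (median 87.7) after unloading. The 3 lowest mice were controls, and so was the highest, Control 4. With means of 81.9 ± 28.5 RPKM and 92.9 ± 25.9 RPKM the log2 fold change was 0.21, with an interval from -0.24 to 0.65 (exact permutation test, two-sided, p = 0.356). It was 0.12 without Control 6 and 0.32 without Control 4. Ptk2 was the most even of the 10 genes, at 5.31 to 8.78 RPKM (median 7.40) in the controls and 5.04 to 8.91 RPKM (median 7.27) after unloading. With means of 7.02 ± 1.37 RPKM and 7.03 ± 1.54 RPKM the log2 fold change was 0.00, with an interval from -0.33 to 0.32 (exact permutation test, two-sided, p = 0.974), and it was 0.11 under quantile normalization.

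Ratios within a mouse, taken of RPKM + 0.1, depend little on how its library was scaled. The Wwtr1 to Yap1 ratio had a median of 1.38 in control and 1.36 in HLU mice, and the difference in log2 ratio was 0.00 (exact permutation test, two-sided, p = 0.973). The Ctgf to Cyr61 ratio had medians of 2.32 and 1.68, a log2 difference of -0.27 (exact p = 0.329), which was -0.14 without HLU 1 (exact p = 0.587) and -0.43 without HLU 4 (exact p = 0.0819). The Trpv4 to Piezo1 ratio had medians of 0.210 and 0.173, a log2 difference of -0.06 (exact p = 0.748). The Piezo2 to Piezo1 ratio spanned 0.0841 to 0.261 (median 0.155) in the controls and 0.124 to 0.914 (median 0.237) after unloading. It stood above the control median in 7 of 8 HLU mice. The log2 difference was 0.77 (exact permutation test, two-sided, p = 0.0309), which became 0.124 after Benjamini-Hochberg adjustment over the 4 ratios. HLU 4 held both the highest ratio and the lowest Piezo1 level, and without it the log2 difference was 0.51 (exact p = 0.0612). The exact p was also above 0.05 without Control 3, Control 6, Control 7 or HLU 7, between 0.0539 and 0.0692.

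The wider families of these genes held few called members. Among 13 stretch-gated and shear-responsive channels tested, 0 were called higher and 1 lower at the unadjusted threshold, where 1.11% and 4.76% of all features were. The 1 was Trpc6, a cation channel gated by diacylglycerol, which spanned 6.42 to 13.9 RPKM (median 9.15) in the controls and 3.11 to 12.3 RPKM (median 6.35) after unloading. Its log2 fold change was -0.55 (limma, unadjusted p = 0.0439, adjusted p = 0.744). Its exact permutation p was 0.0606. Tmem63a, the next channel by level, had a mean of 7.26 RPKM and a log2 fold change of -0.01. Pkd2, also at 7.26 RPKM, was at 0.21.

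Of 26 Hippo kinases, TEAD factors and partners of YAP and TAZ tested, 0 were called in either direction, beside 5.87% of all features, and their median log2 fold change was 0.03. Sav1 and Stk4, scaffold and kinase of the Hippo cascade, had means of 48.2 and 27.7 RPKM and log2 fold changes of 0.01 and -0.23. Of 20 genes of a YAP-TAZ target signature tested, 1 was called higher and 0 lower, beside 1.11% and 4.76% of all features. Their median log2 fold change was 0.10. The 1 was F3, tissue factor, which starts blood clotting. It spanned 1.56 to 3.75 RPKM (median 2.36) in the controls and 2.36 to 4.78 RPKM (median 3.58) after unloading, above the control median in 8 of 8. Its log2 fold change was 0.55 (limma, unadjusted p = 0.00947, adjusted p = 0.744). Asap1 and Gadd45a, the signature genes of highest level beside the 3 named targets, were at -0.21 and -0.25.

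Beside each of the following counts stands the 5.87% of all features called in either direction. Of the 5 CCN family genes tested, 0 were called in either direction, with Wisp1 at 0.12 and Wisp2, which ranged from 2.37 to 9.58 RPKM in control and from 4.42 to 9.92 RPKM in HLU mice, at 0.46 (limma, unadjusted p = 0.0906). Ankrd1 was the only gene of its family analysed here. Of the 7 connexins and pannexins tested, 0 were called in either direction, with Panx1 and Panx3 at -0.01 and 0.02. Of 24 focal adhesion proteins and of 14 actin and SRF-MRTF genes tested, 0 were called in either direction, with median log2 fold changes of -0.08 and -0.12. In these lists Lims1 and Actn1 were at -0.30 and -0.07, and Actb and Rhoa at -0.22 and -0.12.

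The promoters were searched for the motif of TEAD factors, the DNA-binding partners of YAP and TAZ, in the genes of the coactivators as well as of their targets. RefSeq start sites of build GRCm38.p6 matched 7 of the 10 genes (not Ctgf, Ptk2 and Piezo2), in 8 windows, since Wwtr1 has a pair of start sites. In the 250 bases before each start site, CATTCC or its reverse complement GGAATG was found in 4 genes (Yap1, Wwtr1, Cyr61 and Ankrd1) and not in Piezo1, Trpv4 or Gja1, and 12.6% of the 32851 windows of all genes held it. The CArG box, searched on both strands, was found in 0 of the 7 genes and in 1.47% of all windows. The following 30 bases are written 5′ to 3′ on the strand of the gene, all of them the minus strand, with the motif in capitals.
Yap1, chr9:8004720-8004749: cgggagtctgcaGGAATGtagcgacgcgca
Wwtr1, chr3:57576029-57576058: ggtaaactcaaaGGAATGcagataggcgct
Cyr61, chr3:145650071-145650100: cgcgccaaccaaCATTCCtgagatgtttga
Ankrd1, chr19:36120037-36120066: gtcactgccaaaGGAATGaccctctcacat
Ankrd1, chr19:36119950-36119979: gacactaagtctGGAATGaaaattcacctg
Counted from the start site, the Cyr61 motif lay at -103 to -98 and the Ankrd1 motifs at -210 to -205 and -123 to -118. Both Ankrd1 matches lie within the gene as GENCODE draws it, from 36111961 to 36120099 of chromosome 19, where transcripts start further upstream. A match of 6 letters is a description of the sequence and not a binding site.

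In GENCODE annotation of GRCm38, Piezo1 lies at chr8:122481698-122551329, Trpv4 at chr5:114622152-114658421, Yap1 at chr9:7931999-8004596 and Wwtr1 at chr3:57455649-57575910. Ctgf lies at chr10:24595442-24598683, Cyr61 at chr3:145646976-145649981, Gja1 at chr10:56377330-56402513 and Ptk2 at chr15:73205102-73423280. The files name genes without positions, and these coordinates are those of the annotation and not of the build used by the authors.

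Although the groups did not separate, the genes varied together from mouse to mouse. Values were log2(RPKM + 0.1) centred on the mean of each mouse's own group, and the correlation was taken over all 16 mice. Of 45 pairs of the 10 genes, 41 had a positive Pearson's r, with a median of 0.55, and 21 passed a Benjamini-Hochberg adjusted permutation p of 0.05, all of them positive. Of the 21, 19 also passed by Spearman's rho, and the highest adjusted p among the 21 was 0.0308. Each gene's median r with all features tested lay between -0.07 and 0.04, with a wide spread on both sides. An r above 0.7 was found for 1.76% (Ankrd1) to 17.3% (Piezo1) of all features. An r below -0.7 was found for 0.147% (Gja1) to 11.1% (Yap1). The share of pairs among all features that would pass was not computed, so the 21 of 45 stand without that background. The values of a mouse come from 1 library and share its divisor.

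**Figure D3:**
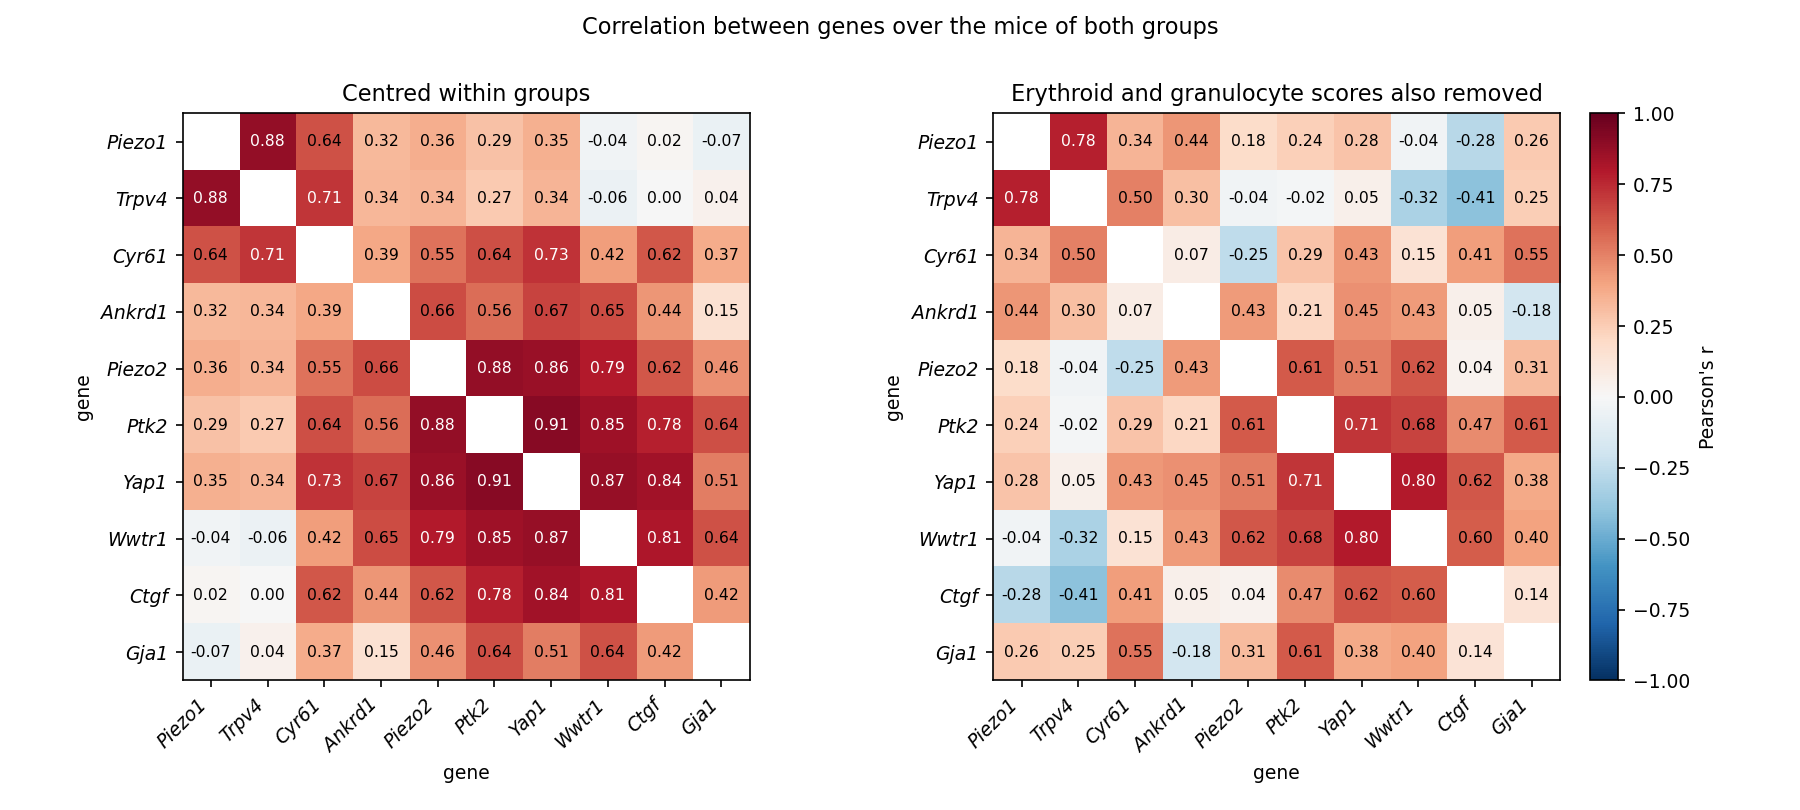
Pearson's r between each pair of the 10 genes over 16 mice, from -1 (blue) to 1 (red), with values centred within groups (left) and with the erythroid and granulocyte marker scores also removed (right). Yap1, Wwtr1, Ptk2, Piezo2 and Ctgf form the red block in the left panel, Piezo1 and Trpv4 a separate pair, and the median r falls from 0.55 on the left to 0.31 on the right.

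The closest pair was Yap1 with Ptk2, at r = 0.91 and rho = 0.84 (permutation p = 1e-05 for r, the smallest that 100000 permutations can give, and 0.000450 after adjustment over the 45 pairs), with r = 0.85 within control and 0.97 within HLU mice. Only 0.630% of all features had a higher r with Yap1 than Ptk2 had. Yap1 with Wwtr1 gave r = 0.87 and rho = 0.73, and Wwtr1 with Ptk2 r = 0.85 and rho = 0.78. Among the targets, Ctgf followed the coactivators more closely than Cyr61 or Ankrd1 did in value, with r = 0.84 with Yap1 and 0.81 with Wwtr1. Cyr61 gave 0.73 with Yap1 and 0.42 with Wwtr1, and Ankrd1 gave 0.67 and 0.65, and the differences between these coefficients were not tested. Ctgf with Cyr61 gave r = 0.62 but rho = 0.48, and r = 0.34 without Control 1 and Control 3, so this relation rests on those mice. Wwtr1 with Ankrd1 likewise fell to 0.42 without HLU 2 and HLU 3.

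The channels did not vary as a group. Piezo1 with Trpv4 gave r = 0.88 and rho = 0.83, with r = 0.94 within control and 0.80 within HLU mice, and 0.84 without Control 1 and HLU 4. Piezo1 had an r near 0 with Wwtr1 (-0.04), Ctgf (0.02) and Gja1 (-0.07), and of 0.35 with Yap1. Over all mice Trpv4 gave -0.06 with Wwtr1, 0.04 with Gja1, 0.27 with Ptk2, and 0.34 with Yap1 and with Ankrd1. Without Control 4 and HLU 4 it rose to 0.39 with Wwtr1, 0.56 with Gja1, 0.64 with Ptk2 and 0.61 with Yap1. With Ankrd1 it was then 0.28. Piezo2 followed the coactivators and the kinase, with r = 0.88 with Ptk2, 0.86 with Yap1 and 0.79 with Wwtr1. Its r with Piezo1 was 0.36 over all mice, 0.75 within control and -0.01 within HLU mice, a difference between groups that was not tested. Without Control 1 and HLU 4 this r was 0.57. Piezo2 with Trpv4 gave 0.34 over all mice, 0.77 within control and -0.07 within HLU mice, and 0.09 without Control 5 and HLU 7. HLU 4 had the lowest level of Piezo1 and of Trpv4 and the highest of Wwtr1. Cyr61 was the 1 target that passed with both channels, at r = 0.64 with Piezo1 and 0.71 with Trpv4.

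**Figure D4:**
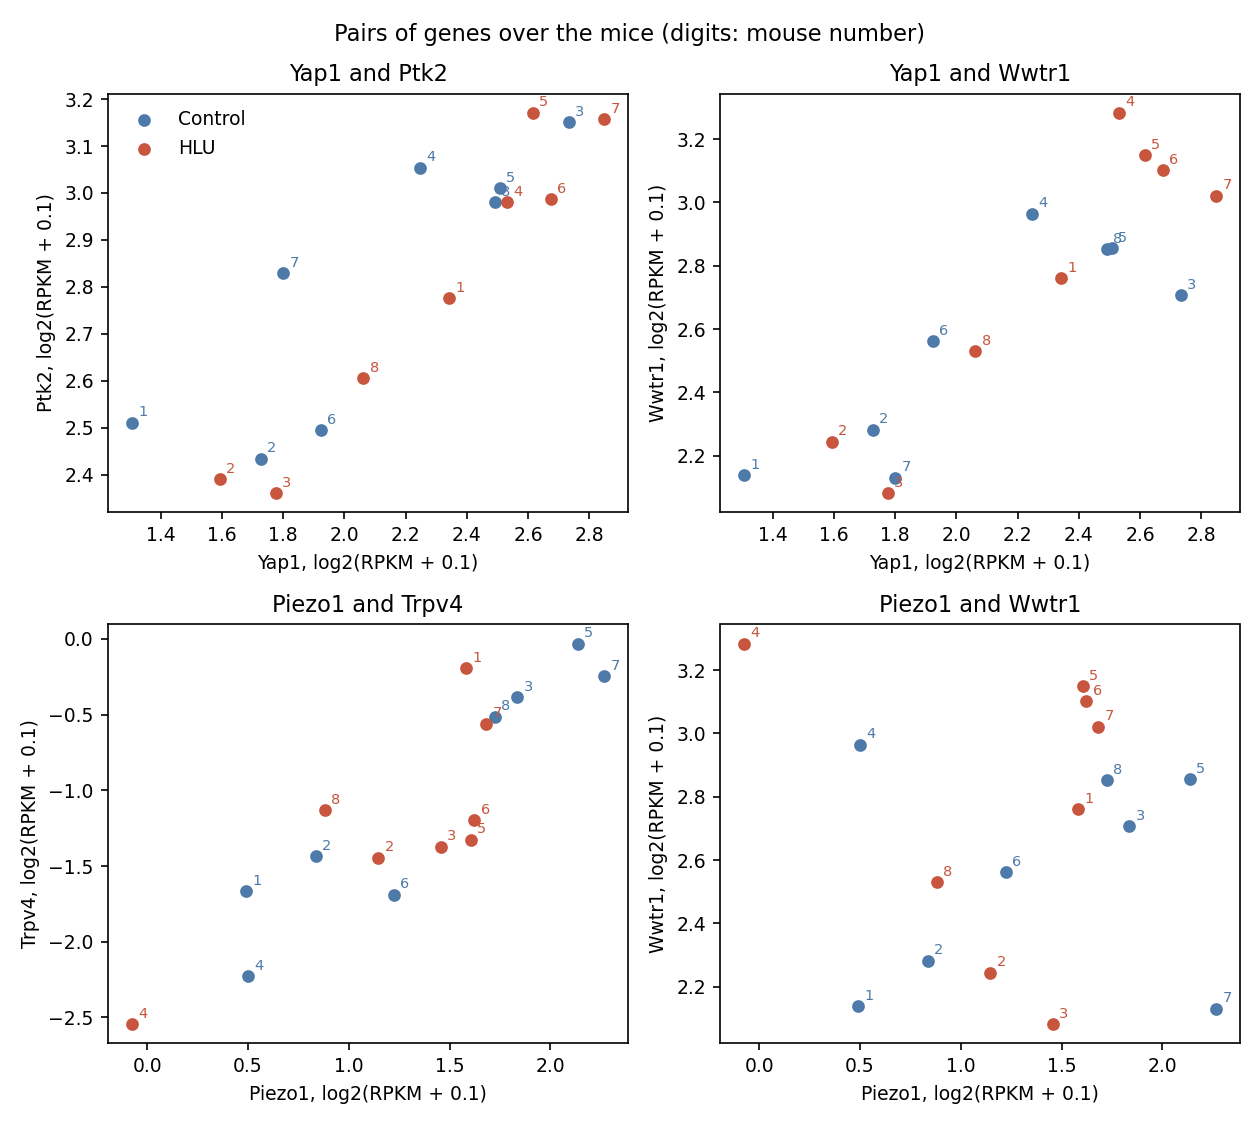
Log2(RPKM + 0.1) of 4 pairs of genes in each mouse, control in blue and HLU in red, with the mouse number beside each point. Yap1 rises with Ptk2 and with Wwtr1 across both groups and Piezo1 with Trpv4, whereas Piezo1 against Wwtr1 shows no slope, with HLU 4 at the upper left.

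Gja1 passed only with Ptk2 (r = 0.64) and Wwtr1 (r = 0.64) and not with Yap1 (r = 0.51, adjusted permutation p = 0.102). Its r was 0.46 with Piezo2, 0.42 with Ctgf and 0.15 with Ankrd1. Few pairs also passed for Piezo1, with Trpv4 and Cyr61, and for Trpv4, with Piezo1 and Cyr61. Without the 2 libraries of lowest depth 16 of the 21 pairs passed, and with median-of-ratios scaling all 21 did, beside 2 further pairs.

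The same genes also varied with cell type markers. The score of a cell type is the mean centred log2 value of its markers, and 24 of 60 relations between the 10 genes and 6 scores passed an adjusted permutation p of 0.05. Among the scores was that of slow skeletal muscle, whose list was written after the values had been seen. Under median-of-ratios scaling 32 relations passed, the 24 among them. The share of all features that would pass with the same scores was not computed, so these counts do not set the 10 genes apart from other features. The granulocyte score ran against Yap1 (r = -0.80), Ptk2 (-0.80), Piezo2 (-0.80), Wwtr1 (-0.79), Ctgf (-0.72) and Cyr61 (-0.54). The osteocyte score ran with Yap1 (r = 0.84), Ctgf (0.82), Ptk2 (0.82), Wwtr1 (0.73), Cyr61 (0.69) and Gja1 (0.64). Piezo1 and Trpv4 ran with the endothelial score (r = 0.81 and 0.61) and Trpv4 also with the osteoblast score (r = 0.61, adjusted permutation p = 0.0459), and their r with the granulocyte score was -0.07 and -0.18. Cyr61 and Gja1 had their highest r with the osteoblast score (0.77 and 0.71). The erythroid score ran against Wwtr1 (r = -0.67, adjusted permutation p = 0.0343) and Gja1 (r = -0.59, 0.0459). For Wwtr1 this r was -0.33 within control and -0.86 within HLU mice. By Spearman's rho neither passed (adjusted permutation p = 0.0548 and 0.0609). The osteocyte score with Cyr61 (0.0589) and the slow muscle score with Wwtr1 (0.0544) also did not pass by rho. By rank the leading relations were alike, with a Spearman's rho of -0.81 between Yap1 and the granulocyte score (adjusted permutation p = 0.00380), 0.81 between Yap1 and the osteocyte score (0.00670) and 0.87 between Piezo1 and the endothelial score (0.000600). Without the 2 mice farthest from the median of the score, r was -0.73, 0.80 and 0.93 in the same order.

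**Figure D5:**
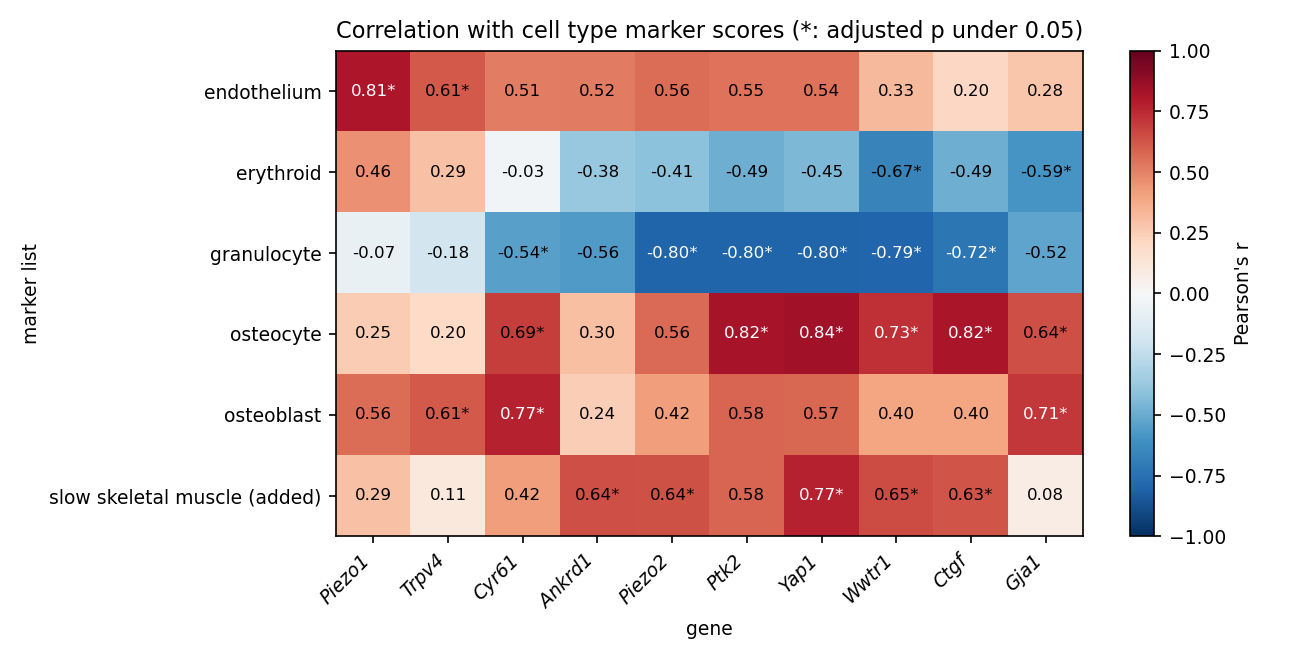
Pearson's r of each gene (columns) with each cell type marker score (rows) over 16 mice, centred within groups, with an asterisk where the adjusted permutation p was under 0.05. Yap1, Wwtr1, Ptk2, Ctgf and Piezo2 are blue in the granulocyte row, Piezo1 is red in the endothelial row at 0.81, and Ankrd1 has its highest value, 0.64, in the slow muscle row.

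Ankrd1 passed with a single score, that of slow skeletal muscle, at r = 0.64, and the same score gave 0.77 with Yap1, 0.65 with Wwtr1, 0.64 with Piezo2 and 0.63 with Ctgf. Without Control 1 and HLU 2 these were all lower, at 0.59 for Ankrd1, 0.58 for Yap1, 0.50 for Wwtr1, 0.53 for Piezo2 and 0.40 for Ctgf. That of Ctgf was then the lowest of these, and whether any of these relations would pass without those mice was not tested. All 8 markers of that list passed the minimum, and their summed level ranged from 51.1 to 443 RPKM in control mice and from 44.0 to 594 RPKM in HLU mice, and the lowest and highest mice, HLU 2 and HLU 7, were both unloaded. The list was written after the values had been seen. With its score as a covariate 0 of the 8 genes were called, and Ankrd1 was at a log2 fold change of 0.28 (limma, unadjusted p = 0.331).

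No score passed an exact permutation p of 0.05 between groups. The erythroid score was 0.59 lower in HLU on the log2 scale (exact permutation test, two-sided, p = 0.0692) and the osteocyte score 0.40 higher (exact p = 0.126), with the granulocyte score at -0.11 (exact p = 0.644), the endothelial at 0.01 (exact p = 0.913), the osteoblast at -0.06 (exact p = 0.811) and the slow muscle at -0.18 (exact p = 0.806). After the erythroid and granulocyte scores were removed from every gene, 37 of the 45 pairs still had an r above 0 and the median was 0.31. Yap1 with Wwtr1 then gave 0.80, Piezo1 with Trpv4 0.78, Yap1 with Ptk2 0.71 and Yap1 with Ctgf 0.62. Piezo2 with Yap1 gave 0.51 and Piezo2 with Ctgf 0.04. The part of the other cell types in these relations was not tested.

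The features whose centred values were most like each gene were taken from up to 13836 with a unique symbol and a mean of at least 1 RPKM. Yap1 was closest to Tspan3, Pmp22 and Igdcc4 (r = 0.98, 0.97 and 0.96), and Wwtr1 to Pkd2, Pls3 and Cped1 (0.97, 0.96 and 0.96). Ptk2 was closest to Vit, Gm15417 and Neo1 (each 0.95), and Piezo2 to Mkl2, which encodes an actin-regulated coactivator of SRF, B3gnt1 and Ehbp1 (0.94, 0.92 and 0.92). Piezo1 was closest to Sh3bp5l, Slc29a1 and Sh3gl1 (0.99, 0.98 and 0.98), and Trpv4 to Slc25a28, Pofut2 and BC004004 (0.93, 0.92 and 0.92). No feature was among the 3 closest of more than 1 of these genes.

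Among the targets, Ctgf was closest to Ecm2, Tmem42 and Ly6a (r = 0.90, 0.89 and 0.89), and Cyr61 to AU021092, Id3 and Arl4d (0.92, 0.92 and 0.91). Ankrd1 was closest to Mipep, Hbegf and Timm8b (0.92, 0.87 and 0.87), where Hbegf encodes a growth factor of the EGF family. Gja1 was closest to Gpx8, Ptprd and Cdh11 (each 0.94), the last of them cadherin 11, an adhesion protein of osteoblasts. An r above 0.7 was found for 17.3% of all features with Piezo1, 8.88% with Yap1 and 1.76% with Ankrd1.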

How the data were processed

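RNA of 16 mouse femora was measured, 1 library per mouse. Per the labels and the study's methods, TruSeq v2 libraries were sequenced on a HiSeq, 8 per lane, and the submitters' processing notes name TopHat2, DESeq2 and build mm9. The authors deposited RPKM for each mouse; the annotation and gene lengths are not given in the sources used here. A count model cannot take RPKM, so log2(RPKM + 0.1) was compared with limma 3.58.1 (trend, equal weights, R 4.3.3) over features whose mean reached 0.5 RPKM, with Benjamini-Hochberg adjustment over all of them, and single genes by exact permutation in Python 3.11.15 with numpy 2.4.6. Correlations used 100000 permutations within groups (smallest p 1e-05). Whole reads, within 0.02 of a read, were recovered for 16969 of 16973 features (99.98%), and voom on them with median-of-ratios library sizes called 386 features higher and 401 lower. The coefficient of variation given for Trpv4 from its reads covers counting error only. Scripts were tested on simulated data. The 10 genes and all lists were chosen with earlier results of these data known. From each list, genes called at the unadjusted threshold and the 2 of highest level outside the 10 were named, and the 3 features most like each gene. Pkd2 was added to the channels, as its level equalled that of Tmem63a to 3 digits. The labels do not say that mice were housed or processed separately, so p-values measure the spread between these samples. All 15 markers of a skeletal muscle list were not analysed here, and 8 slow muscle genes took their place. Alternatives were other pseudocounts, filters and scalings, covariates, a replicate block and left-out libraries.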

Additional observations from a re-analysis of the deposited data

Results flagged for a closer look

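In 28 groups of 8 mice, each gene and each ratio in each group, the gap between an extreme mouse and its nearest neighbour was compared with the range of the group by Dixon's criterion. For normal values chance alone marks about 1 group in 20 under this criterion. RPKM and ratios were taken here without logs, and the ratios share genes with the other groups, so that rate need not hold. It marked 2. Ctgf in Control 3 was 84.9 RPKM, against 24.1 to 52.2 RPKM in the other control mice; this mouse also had the highest Yap1 level of the controls. The Piezo2 to Piezo1 ratio in HLU 4 was 0.914, against 0.124 to 0.349 in the other HLU mice; this mouse had the lowest Piezo1 and Trpv4 and the highest Wwtr1 of all 16.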

How the results depend on the processing

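Of the 16973 features, 188 were called higher and 808 lower at the unadjusted threshold, 18.9% higher. This split depended on scaling, with 376 and 401 under median-of-ratios (48.4%), 460 and 364 under quantile normalization (55.8%) and 386 and 401 under voom with median-of-ratios library sizes (49.0%), and the median log2 fold change moved from -0.10 to between -0.02 and 0.00. The slow muscle covariate gave 407 and 1433, the blood covariates (erythroid and granulocyte scores) 1690 and 2291, a minimum of 2 RPKM 106 higher, no minimum 391 higher, and the loss of the 2 shallowest libraries 108 higher. Past an adjusted p of 0.1 there were 1533 features with blood covariates and 1 each with no filter, without the trend, with the slow muscle covariate and with voom. Without single mice the counts were 117 (without HLU 7) to 363 (without HLU 2) higher, with 310 without HLU 3, and 471 (without HLU 7) to 1385 (without HLU 2) lower, with 488, 505 and 512 without HLU 1, Control 6 and Control 7, and 0 to 1 past the adjusted threshold.

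Of the 8 genes tested together, 1 was called with blood covariates (Cyr61) and 0 under every other setting and without any single mouse. Signs turned with blood covariates for Piezo1 (0.51), Gja1 (-0.0090) and Ptk2 (0.011), with median-of-ratios, quantile and voom for Ctgf (0.0097, 0.061 and 0.011) and Ptk2 (0.081, 0.11 and 0.073), and with the slow muscle covariate for Ptk2 (0.017). Left-out mice gave -0.27 to 0.048 for Piezo1, -0.20 to 0.066 for Ctgf, -0.058 to 0.059 for Ptk2 and 0.51 to 0.77 for Piezo2, which was 0.23 at a pseudocount of 1 (exact p = 0.0505). The Piezo2 to Piezo1 log2 difference was 0.34 at a pseudocount of 1 (exact p = 0.144), 0.79 without the shallowest libraries (exact p = 0.0618) and 0.51 to 0.92 without single mice. The Wwtr1 to Yap1 difference was 0.0095 at a pseudocount of 1 and -0.075 to 0.048 without single mice, and the Trpv4 to Piezo1 difference was 0.026 and 0.028 under the same settings and -0.16 to 0.0093 without single mice. Why values turned was not tested.

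The labels do not say whether the replicate numbers shared by the groups pair the mice, and the main comparison did not pair them. Same-numbered mice correlated at -0.17 to 0.51 in their deviations, above 0.1 in 3 of 8 pairs, and 1 of 8 controls correlated best with its own number. These correlations cannot show whether such mice shared a batch. With the replicate block 199 features were called higher, 840 lower and 0 past the adjusted threshold, and 0 of the 8 genes. The slow muscle covariate, the left-out mice and the correlations after removal of the blood scores were chosen after seeing the data, and the planned skeletal muscle covariate was not run. Piezo2 and Trpv4, below the minimum, were not run under quantile normalization, voom, the block, covariates or without the trend, and their precision is limited by reads.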
